A study of Mus musculus with 44 samples.

Results

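The proteasome genes of 44 single Tomato-positive cells from mouse hindlimb muscle are described here. They were taken as every symbol of the deposited table that starts with Psm, a letter from a to g and a digit. This gave 48 of the 12707 symbols, on 49 rows because Psmd5 had 2. Of these, 46 encode subunits, assembly chaperones, activators or an inhibitor of the proteasome. Psmc3ip, a recombination factor, and Psme2b, a near copy of Psme2, matched by symbol alone. Psma8 and Psmb11, the testis and thymus forms of core subunits, are not analysed here.

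The cells came from adult C57BL/6 mice that carry Prrx1-CreERT and the Tomato reporter, in which tamoxifen makes cells with Prrx1 activity fluorescent. Each mouse was injected with 2 mg of tamoxifen daily for 3 days, and there was no uninjected or unlabelled group. After digestion of the muscle and sorting, single fluorescent cells were picked by hand and sequenced. Since the labels name no animal, all 44 cells are treated as a single sample: nothing was tested, and every comparison only describes these cells.

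The proteasome degrades proteins that carry ubiquitin. Its barrel, the 20S core, is a stack of rings of α subunits (Psma genes) and β subunits (Psmb genes), and Psmb5, Psmb6 and Psmb7 hold the cutting sites. The 19S cap binds the substrate, removes ubiquitin and unfolds the protein with a ring of ATPases (Psmc genes) beside non-ATPase subunits (Psmd genes). In cells that respond to interferon, Psmb8, Psmb9 and Psmb10 replace the 3 constitutive catalytic subunits and form the immunoproteasome, which favours peptides that fit MHC class I. The PA28 ring of Psme1 and Psme2 is another interferon-induced cap.

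Values are log2(FPKM + 1), where FPKM is fragments per kilobase of transcript scaled to the library, so levels can be compared between genes of different length. All 44 cells had been given nearly the same distribution of values, and each holds 1540 rows that reach a log2 value of 5, so a value ranks a gene within its cell more than it measures an amount of RNA. A gene is called present in a cell at a log2 value of 5 or more, an FPKM of 31. The type of the labelled cells was checked with 7 measured fibroblast markers, which were all present in at least 31 cells, with Ly6a and Col1a2 in 44. No endothelial marker was present in any cell, Cd68 was the only leukocyte marker present, in 1 cell, and Ptprc stood at 0 cells. Myofibre markers numbered up to 9 of 10 in a cell, mural markers up to 7 of 7 and tenocyte markers up to 6 of 7. At least 1 myofibre, mural or tenocyte marker was present in 30, 20 and 32 cells, in that order.

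Low values were shared between particular libraries. Rank correlations over every other row linked 172 of 946 pairs of cells, and 42 cells fell into 6 blocks of 7 mutually linked cells. Not all of the 172 links lay within blocks. Steps below that subtract block means or leave out a block therefore do not remove every link. In 752 rows with a single strong cell, linked cells held a median of 0.277% of its FPKM and unlinked cells 0%. Among the 1461 values under 5 of the proteasome genes, Spearman's rho with the signal expected from linked cells was 0.67. Among the 651 values of 5 or more it was 0.18. For the core and 19S genes alone the 2 values were 0.50 and 0.14. These values pool genes, and a gene strong in more cells tends to have a higher expected signal in every cell. They therefore do not separate the part of linked cells from the level of a gene. All 651 of the higher values were over 5 times the expected signal, and so were 252 of the 844 values between 1 and 5. Where the expected signal is low, any value of 5 or more passes this rule by its size alone. The count of 651 is therefore not a separate check of those values. Because only some of the values under 5 exceed the expected signal in this way, each gene is described first by the cells in which it was present. Class means and correlations use all values.

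**Figure D1:**
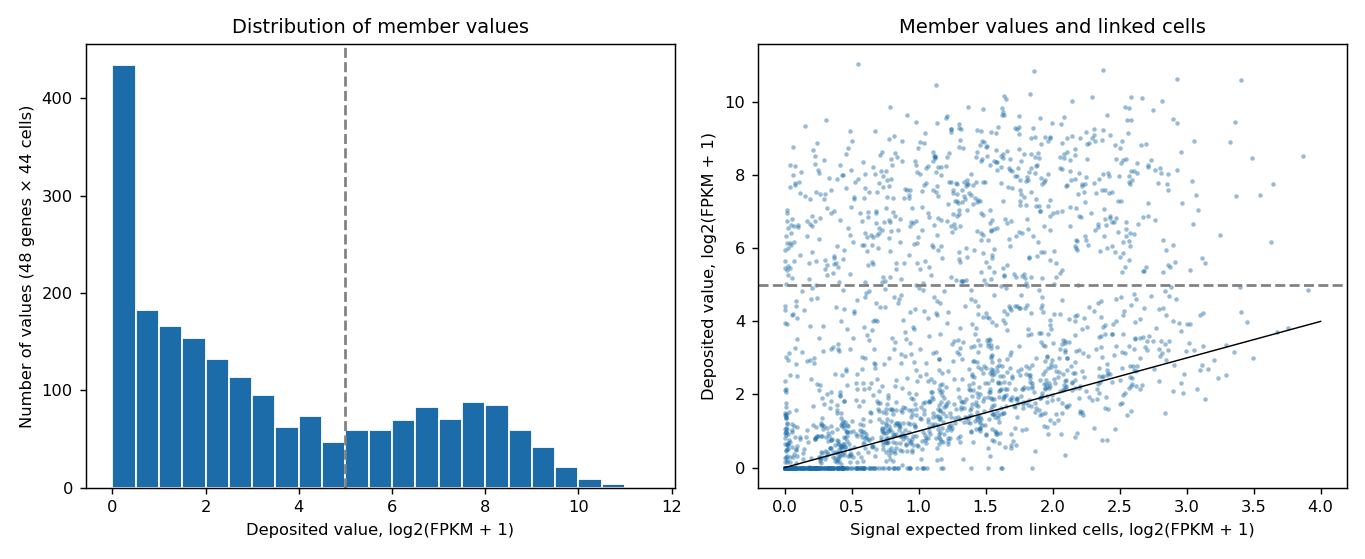
Left, number of values of the 48 genes in 44 cells in bins of deposited log2(FPKM + 1), with the dashed line at 5. Right, each value (vertical axis) against the signal expected from linked cells (horizontal axis), both as log2(FPKM + 1), with the line of equality: values under 5 follow it loosely, with 252 of the 844 between 1 and 5 at over 5 times the expected signal, and the 651 values of 5 or more lie above it.

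All of these genes but Psme2b were present in some cells, and none was present in all. Of the 48 genes, 9 were present in at least 22 cells, or 18.8%, where 5.25% of all 12707 symbols passed the same mark. The median of the gene medians was 2.60, against 0.15 over all symbols. Ribosomal protein genes passed in 78 of 83 cases and respiratory chain genes in 36 of 94. Below a value of 9, single values were fewest around the threshold: 101 of the 1364 values of the 31 core and 19S genes lay between 4 and 5 and 86 between 5 and 6, against 136 between 7 and 8, and 72 were at 9 or more. Among the 32 genes present in 10 or more cells, the median value where present, which cannot be under 5, ranged from 5.95 to 8.59.

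The 14 constitutive core subunits were present in 14 to 28 cells per gene. Psmb2, a structural β subunit (chromosome 4, 126677630 to 126709714, plus strand, GRCm38), was present in the most cells. Its values ran from 2.04 to 10.87 with a median of 6.45, and it was present in 28 cells (63.6%, exact 95% interval 47.8 to 77.6). It was at a log2 value of 1 or more in all 44 cells. Psma7, an α subunit on chromosome 2 (180036374 to 180042433, minus strand), ranged from 1.15 to 9.60 with its median at 6.32 and was present in 26 cells. Psma3, of the same ring, ranged from 0.46 to 10.02 with its median at 6.04 and was present in 27. Intervals of this kind cover counting over cells only and take the cells as independent, although libraries are linked. Those of these 3 genes overlap. The genes were measured in the same cells, so overlap does not decide their order, which was not tested.

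The other 5 measured α subunits sat lower, with medians from 3.28 for Psma1 and Psma5 to 3.61 for Psma4. Each was present in 16 or 17 cells, with 17 for Psma2 and Psma5 and 16 for Psma1, Psma4 and Psma6. In the β rings, Psmb1 was present in 24 cells with a median of 5.17, Psmb4 in 22 with 4.96 and Psmb3 in 20 with 4.26. Of the catalytic subunits, Psmb6 (caspase-like activity) was present in 25 cells, Psmb5 (chymotrypsin-like) in 15 and Psmb7 (trypsin-like) in 14. Psmb7 had the lowest median of the core, 1.85, although the complex holds as many copies of it as of Psmb6, at 6.05. A total of 405 exon bases of Psmb7 overlap Nek6 on the opposite strand, and whether reads were counted by strand is not given.

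As a class, the genes of the 19S cap were present in fewer cells than the core genes, with overlapping ranges. Of its 17 ATPase, base and lid genes 2 reached 22 cells (11.8%), Psmc3 and Psmd7 with 23 each, against 6 of 14 in the core (42.9%). Of all symbols 5.25% did. Over all values, 45.9% of the core and 33.6% of the 19S were at 5 or more. Psmd7, a lid scaffold subunit, ranged from 0.00079 to 9.42 with a median of 5.81. Psmc3, an ATPase, ranged from 0.65 to 8.91 with a median of 5.26. Next came Psmd4, a ubiquitin receptor, present in 21 cells with a median of 4.47, and the ATPase Psmc5, in 20 cells with 4.60. At the other end, Psmd3, a lid subunit, was present in 6 cells with a median of 0.43.

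Among the ATPases, which form a ring with 1 of each, the number of cells ran from 11 for Psmc1 and Psmc4 to 23 for Psmc3, with 13 for Psmc2 and 14 for Psmc6. Psmd1 and Psmd2, the scaffold subunits of the base, were present in 15 and 10 cells. Psmd14, the deubiquitinase of the lid, was present in 13 cells with a median of 2.75 and a highest value of 8.56. The lid subunits Psmd11 and Psmd12 were present in 15 and 14 cells, Psmd8 in 19, Psmd13 in 13 and Psmd6 in 10. Within the 19S the number of cells thus ran from 6 for Psmd3 to 23, although its subunits share 1 complex.

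**Figure D2:**
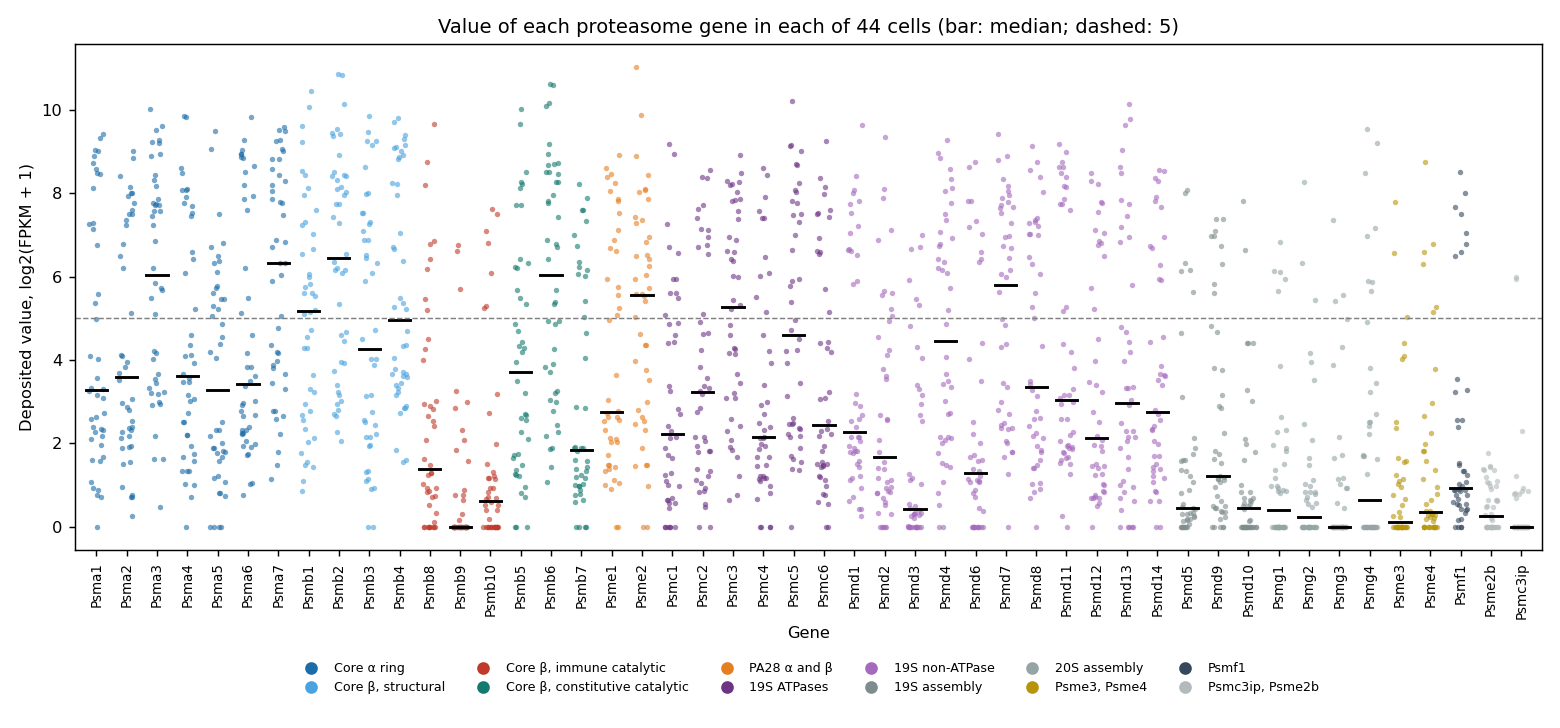
Deposited value as log2(FPKM + 1) (vertical axis) of each gene (horizontal axis) in each of 44 cells (points), coloured by class, with the median as a bar and the value of 5 dashed. Psmb2, Psma7, Psmb6 and Psma3 have the highest medians, 6.04 to 6.45, and Psmb9, Psmg3 and Psmc3ip have medians of 0.

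Within a cell, the mean log2 value of the core genes exceeded that of the 19S genes in 38 of 44 cells. The core mean was 4.86 ± 0.79 and the 19S mean 3.72 ± 0.66 (SD over 44 cells). The difference averaged 1.14 ± 0.90, with a range of -0.73 to 3.00. With values under 5 set to 5 it was 0.44 ± 0.48, so much of it lies in values under the threshold. All 6 blocks of linked libraries had a mean difference above 0, from 0.67 to 1.64. It was below 0 in cells 2, 4, 7, 29, 33 and 36, and lowest in cell 36, which also held all 7 mural markers. Cell 30, with 6 mural markers, had a difference of 1.67. The part of these markers was not tested. Exon length differed as well, with a median of 2335 bases for core genes and 2820 for 19S genes. Over these 31 genes, Spearman's rho of length with the number of cells was -0.27, and the part of length in the difference was not tested.

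**Figure D3:**
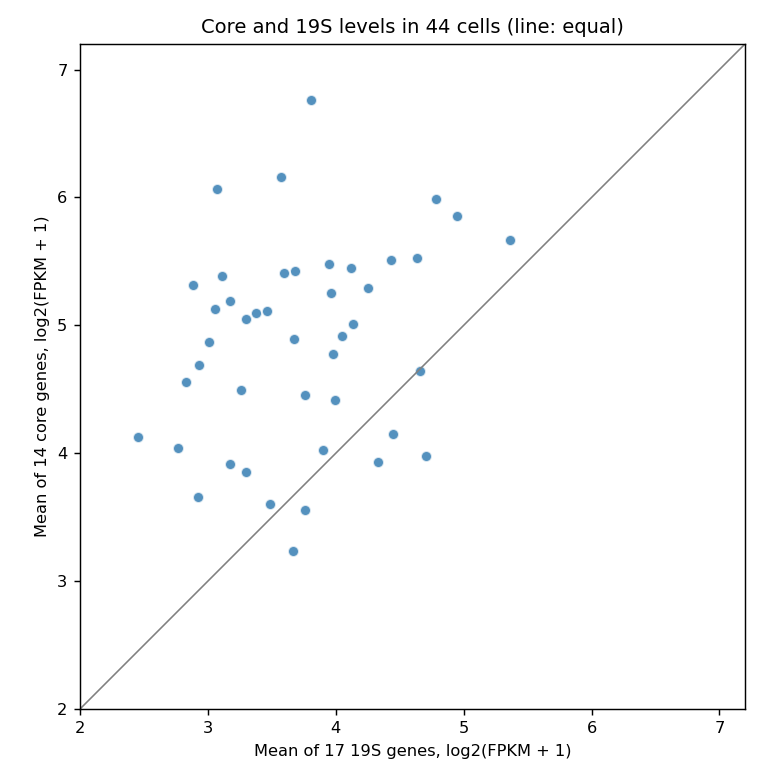
Mean of the 14 constitutive core genes (vertical axis) against the mean of the 17 19S genes (horizontal axis), both as log2(FPKM + 1), in each of 44 cells (points), with the line of equality. The points above the line are the 38 cells with the higher core mean.

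Every cell held part of the set and none held it all. Between 9 and 21 of the 48 genes were present per cell, with a median of 14.5. Cells 6 and 32 held 9, and cells 15 and 26 held 21. Of the 14 core genes a cell held 2 to 11, with the maximum in cell 39 and the minimum in cell 7, and of the 17 19S genes 2 to 11, with the maximum in cell 15 and the minimum in cell 40. The 48 genes together made up a median of 0.647% of the FPKM of a cell, from 0.243% in cell 6 to 1.07% in cell 2, against 15.3% for ribosomal protein genes and 2.59% for respiratory chain genes. Cell 36 had 16 genes present, and cell 31, with 9 myofibre markers, had 13, so both lay within the range of the other cells.

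Correlations between single subunits lay around 0. Over the 465 pairs of core and 19S genes the median Spearman's rho across 44 cells was 0.013, with quartiles of -0.093 and 0.12. Over all pairs of the 3237 symbols that were present in 6 to 28 cells it was 0.00035, with quartiles of -0.11 and 0.11. After the mean of each block of linked cells was subtracted, the 2 medians were 0.016 and -0.00041. Pairs within the core had a median rho of 0.0014, and pairs within the 19S 0.0083. Summed into class means, core and 19S gave rho = 0.25, and 0.28 with block means subtracted. The α ring mean and the mean of the constitutive β subunits gave 0.016. The libraries are linked and hold a forced distribution, so these values are descriptions, and no relation was tested.

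The immune catalytic subunits were the rarest of the catalytic set. Psmb8 (LMP7, the immune counterpart of Psmb5; chromosome 17, 34197721 to 34201454, plus strand) ranged from 0 to 9.66 with its median at 1.39 and was present in 9 cells (20.5%, 9.80 to 35.3). Psmb10 (MECL-1, counterpart of Psmb7; chromosome 8, 105935735 to 105938444, minus strand) ranged from 0 to 7.64 with its median at 0.62 and was present in 7 cells (15.9%, 6.64 to 30.1). Psmb9 (LMP2, counterpart of Psmb6; chromosome 17, 34181987 to 34187764, minus strand) ranged from 0 to 6.75 with its median at 0 and was present in 3 cells (6.82%, 1.43 to 18.7). The 3 intervals overlap.

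Psmb8 stood at 9.66 in cell 11, 8.75 in cell 28 and 8.19 in cell 9, and stood between 5.20 and 6.86 in cells 1, 2, 19, 30, 36 and 41. Psmb10 stood between 5.26 and 7.64 in cells 2, 3, 22, 26, 36, 38 and 44. Psmb9 was at 6.75 in cell 3, 6.63 in cell 27 and 5.70 in cell 20. At least 1 of the 3 was present in 16 cells. Cells 2 and 36 held Psmb8 with Psmb10, where the shares alone give 1.43 cells, and cell 3 held Psmb9 with Psmb10, where they give 0.477. No cell held Psmb8 with Psmb9, where they give 0.614, or all 3. A count of 0 among 44 cells allows a share of up to 8.04%.

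Against their constitutive counterparts the immune genes were lower in most cells. The mean over the immune genes was 1.66 ± 1.39 and that over the constitutive catalytic genes 4.34 ± 1.88 (SD over 44 cells), a difference of -2.68 ± 2.26, with 40 of 44 cells below 0. With values under 5 set to 5 it was -0.78 ± 0.97. All 6 blocks had a mean below 0, from -3.93 to -0.83. The smallest gap was in block 1, cells 1 to 5, 20 and 21, which holds 2 of the 3 cells with Psmb9. The widest pair was Psmb9 against Psmb6, with a mean difference of -5.03 ± 3.24, and Psmb9 was the higher of the pair only in cells 4 and 20. Psmb8 was above Psmb5 in 16 cells and below it in 26, with a mean difference of -1.48 ± 4.05. Psmb10 was above Psmb7 in 11 cells and below it in 30, with a mean difference of -1.54 ± 3.38. For these last 2 pairs the mean difference was smaller than its spread over cells.

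The forms were not exclusive by cell. Psmb8 was present without Psmb5 in 7 cells, Psmb5 without Psmb8 in 13, and both in 2, where the shares alone give 3.07. Psmb9 and Psmb6 were both present in 2 cells, with 1.70 from the shares, and Psmb10 and Psmb7 in 3, with 2.23. Immune forms were present in 3 of the 12 cells with no constitutive catalytic subunit (25%) and in 13 of the other 32 (40.6%). Counting either form, 11 cells held all 3 catalytic sites and 9 held none. Of the mean FPKM of the 6 genes over all cells, the immune forms took 15.8%. Cell by cell their share had a median of 6.41% and an upper quartile of 38.7%, and it was above 50% in 8 cells and highest in cell 9, at 96.9%. This share uses all values, and cells 4 and 7, which were both above 50%, had no immune form present. The transcripts of each pair are 70.9% to 73.7% identical where they align, and how reads were divided between them is not given.

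**Figure D4:**
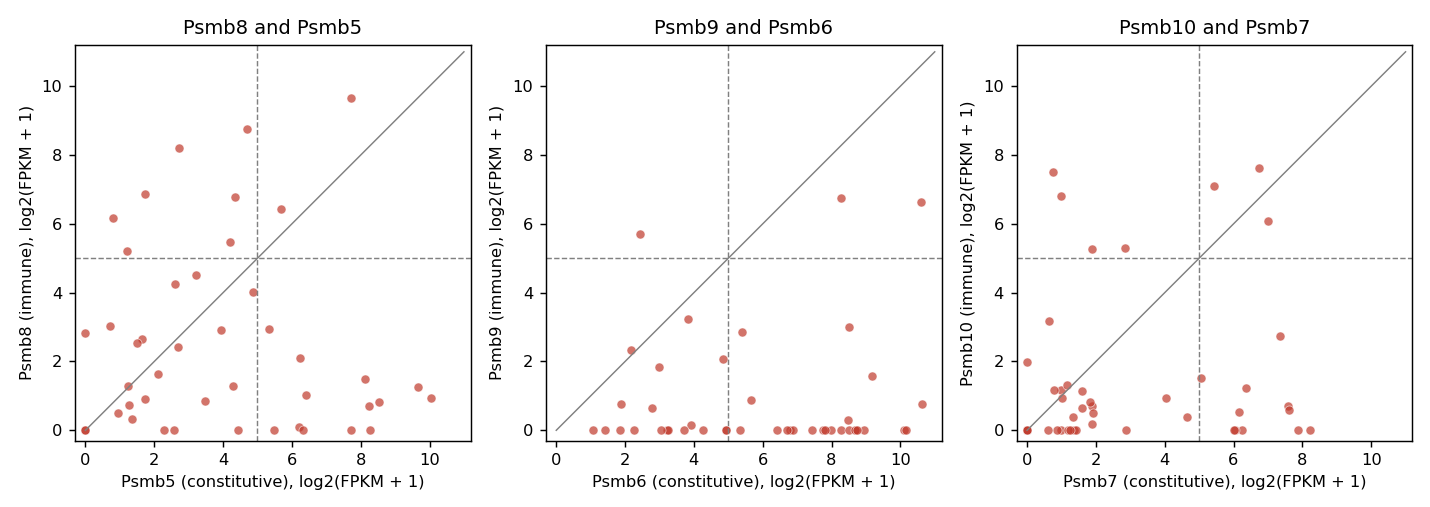
Immune subunit (vertical axis) against its constitutive counterpart (horizontal axis) in each of 44 cells (points), as log2(FPKM + 1), with the line of equality and dashed lines at 5. Few points reach the upper right corner, 2, 2 and 3 cells, and the median of Psmb9 is 0.

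The start regions of 2 such pairs, Psmb9 with Psmb6 and Psmb8 with Psmb5, are shown to set immune beside constitutive forms. They were chosen with the values known, and Psmb7, of the other pair, had no entry. RefSeq entries (GRCm38.p6) with 250 bases before and 50 from the start site matched 41 of the 48 genes. The Psmb8 and Psmb9 windows lie wholly inside the gene spans given above, while those of Psmb6 and Psmb5 cross the annotated gene start. The immune and constitutive windows are therefore not like regions, and their motifs are not compared on equal terms. Capitals mark matches to any of 4 motifs searched on both strands: the antioxidant response element TGACNNNGC, read by Nrf1 and Nrf2 factors, the gamma-activated site TTCNNNGAA of interferon-induced genes, the interferon-stimulated response element, searched as GAAA, any 2 bases and GAAA, and the CCAAT box.
Psmb6, chr11:70525107-70525406, plus strand: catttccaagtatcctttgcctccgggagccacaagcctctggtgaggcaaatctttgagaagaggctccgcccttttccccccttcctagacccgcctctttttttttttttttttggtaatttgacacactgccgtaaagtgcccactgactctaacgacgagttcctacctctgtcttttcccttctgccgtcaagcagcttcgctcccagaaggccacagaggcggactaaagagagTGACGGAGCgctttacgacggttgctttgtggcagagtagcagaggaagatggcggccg
Psmb9, chr17:34187281-34187580, minus strand: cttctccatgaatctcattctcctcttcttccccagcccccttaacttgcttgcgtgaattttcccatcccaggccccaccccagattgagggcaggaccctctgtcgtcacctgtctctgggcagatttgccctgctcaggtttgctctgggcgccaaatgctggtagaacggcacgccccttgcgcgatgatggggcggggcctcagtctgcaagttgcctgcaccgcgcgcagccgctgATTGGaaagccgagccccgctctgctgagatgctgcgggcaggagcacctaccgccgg
Psmb5, chr14:54617946-54618245, minus strand: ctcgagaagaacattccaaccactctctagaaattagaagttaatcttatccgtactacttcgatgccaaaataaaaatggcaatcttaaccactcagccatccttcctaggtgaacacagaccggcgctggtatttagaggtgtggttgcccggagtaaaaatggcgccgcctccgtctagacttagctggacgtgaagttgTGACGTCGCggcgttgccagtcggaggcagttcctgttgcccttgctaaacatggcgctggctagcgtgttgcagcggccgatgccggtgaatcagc
Psmb8, chr17:34197945-34198244, plus strand: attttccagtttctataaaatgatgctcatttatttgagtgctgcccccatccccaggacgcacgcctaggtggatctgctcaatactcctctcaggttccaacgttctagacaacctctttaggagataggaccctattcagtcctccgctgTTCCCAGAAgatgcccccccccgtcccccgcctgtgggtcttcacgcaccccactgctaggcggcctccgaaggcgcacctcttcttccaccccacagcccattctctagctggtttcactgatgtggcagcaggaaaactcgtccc
Both constitutive genes held the antioxidant response element, starting 9 bases before the start site in Psmb6 (TGACGGAGC) and 47 before it in Psmb5 (TGACGTCGC). Psmb8 held the gamma-activated site TTCCCAGAA, 97 bases before the start, and Psmb9 held a reversed CCAAT box 8 bases before it.

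The antioxidant response element was found in 2 of 11 core and 2 of 14 19S start regions, against 12.5% of all 27025. No match was found among the 5 immune catalytic and PA28 genes. The gamma-activated site was found in 3 of the 41 regions (7.32%), those of Psmb8, Psmd2 and Psmg1. It was found in 8.47% of all regions and in 7.12% of those of measured symbols. Among the 5 immune catalytic and PA28 genes, Psmb8 alone held it. The interferon-stimulated element was found in 5 of the 41 regions (12.2%), those of Psme1, Psmb3, Psmd4, Psmd9 and Psmg4, against 3.49% of all. Among regions of measured symbols the share was 3.00%. The Psmb10 region held none of the 4. The CCAAT box was found in 14 of the 41 regions (34.1%), among them 6 of 11 core and 4 of 14 19S regions. It was found in 37.9% of all regions and in 38.4% of those of measured symbols. The Psmb9 window (minus strand) overlaps that of Tap1, the peptide transporter gene, on the plus strand at 34187306 to 34187605. Psmb9 and Tap1 share 212 exon bases on opposite strands, so reads there cannot be told apart without strand. No cell held both, with Psmb9 present in 3 cells and Tap1 in 4, where the shares alone give 0.273.

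The PA28 genes did not share the low level of the immune catalytic genes. Psme2 (chromosome 14, 55587441 to 55591113, minus strand) ranged from 0 to 11.04 with its median at 5.56 and was present in 25 cells (56.8%, 41.03 to 71.7). The value of 11.04, in cell 29, was the highest of any proteasome gene in any cell. Psme1 ranged from 0 to 8.93 with its median at 2.75 and was present in 18 cells (40.9%, 26.3 to 56.8). At least 1 was present in 31 cells and both in 12, where the shares give 10.2. Psme2 was present in 6 of the 9 cells with Psmb8, 5 of the 7 with Psmb10 and 2 of the 3 with Psmb9, against 5.11, 3.98 and 1.70 from the shares.

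Psme2b followed Psme2 at a far lower level. Its 837-base transcript is 99.4% identical to that of Psme2 over 794 aligned bases. It was present in 0 cells, with a highest value of 1.77, and its Spearman's rho with Psme2 over 44 cells was 0.82, or 0.76 with block means subtracted. Reads of the 2 genes can be exchanged by any counting, so the Psme2b row is not read as a gene of its own.

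The remaining activators and the inhibitor were present in few cells. Psme4 (PA200, a cap of a single chain) was present in 6 cells with a median of 0.34, and Psme3 (PA28γ, a nuclear cap) in 3 with 0.11. Psmf1 (PI31) was present in 8 cells with a median of 0.94, and its highest value was 8.53, in cell 36. The chaperones that assemble the core, Psmg1, Psmg2, Psmg3 and Psmg4, were present in 5, 3, 3 and 8 cells, and those of the 19S, Psmd5, Psmd9 and Psmd10, in 6, 9 and 2. None of these 10 genes reached 22 cells, a mark that 5.25% of all symbols reached. Psmg4 had the highest single value of the chaperones, 9.55 in cell 28. Psmc3ip was present in 2 cells, at up to 6.00.

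Other genes of the pathway were as uneven. Ubiquitin itself was abundant, with Ubb and Rps27a present in 44 cells, at medians of 10.60 and 10.25. The E1 enzyme that charges ubiquitin, Uba1, was present in 21 cells with a median of 4.69, and Uba6 in 3. Of 8 measured proteasome partners outside the Psm symbols none reached 22 cells, where 5.25% of all symbols did. Shfm1 (a 19S subunit) was present in 20 with a median of 4.54, Pomp (the core maturation factor) in 14 with 3.85, Uchl5 (a deubiquitinase of the cap) in 2 and Akirin2 (a nuclear import factor for proteasomes) in 1. Of 11 shuttle and unfolding genes only Vcp, the p97 segregase, reached 22 cells (9.09% of the list), with 33 and a median of 6.79. Ubqln1 and Ubqln2, shuttle factors, were present in 0.

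Of the transcription factors that act on proteasome genes, Nfe2l2 (Nrf2) was present in 19 cells with a median of 3.34 and Nfe2l1 (Nrf1) in 13 with 2.66. Mafk, Mafg and Maff, their partners, were present in 8, 7 and 2 cells, and Ngly1 and Ddi2, which process Nrf1, in 2 and 1. None of 6 Nrf2 target genes reached 22 cells, where 5.25% of all symbols did. Srxn1 was present in 8, Hmox1 in 4, Gclm and Gclc in 2 each and Nqo1 and Txnrd1 in 1 each. Of the muscle atrophy ligases, Fbxo21 was present in 3 cells, Fbxo30 in 2 and Fbxo32 in 0.

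In the route that uses immunoproteasome peptides, 5 of 10 measured MHC class I loading genes were present in at least 22 cells. Of all symbols 5.25% were. B2m was present in 44 cells with a median of 9.97, Pdia3 in 36, Calr in 34, Canx in 27 and Tapbp in 23. Tap1, Tap2, Erap1 and Tapbpl were present in 4, 3, 3 and 2 cells, and Nlrc5, the class I activator, in 0. Of 22 interferon genes 2 passed (9.09%, against 5.25% of all symbols), the receptor Ifngr1 with 36 cells and Jak1 with 24. Irf1, the factor that drives Psmb9, was present in 13 cells with a median of 1.92, and Isg15 in 0. Psmb8 was present with Irf1 in 3 cells, where the shares give 2.66.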

How the data were processed

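Full transcriptomes of 44 hand-picked single cells were analysed. The deposited values are on a log2 scale, in 1 table of 12745 rows that the authors name as FPKM. Per the submitters' processing notes, TopHat2, Cufflinks and GRCm38 were used, with no versions. The base and the added 1 were inferred: undoing them gives cell totals of 579623 to 579912 FPKM. The 4000 highest ranks differed by at most 0.0876 between cells, a forced distribution not given in the sources used here. Sequencing depth is unknown. The median number of rows per cell that reached a log2 value of 1 was 4022. IDs matched the reference in 12711 rows. For repeated symbols, only the highest-mean row was used. Of the 48 proteasome genes, 15 share exon bases with another gene in GENCODE M21.

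No test was made, since the cells are 1 sample. Members, gene lists, thresholds and the comparisons were chosen with earlier results of these data known. The text names all members, the pathway genes with the highest and lowest medians of each list and others beside them, and the genes most like Psmb8 and the core mean. Linked libraries were found with an Otsu threshold of 0.540 on Spearman correlations over every other row, and blocks are groups of at least 5 mutually linked cells. Expected signal is 0.277% of the FPKM summed over linked cells. The link steps were run on simulated cells with known links. Those cells had no forced distribution and no low values other than signal from linked cells. The run therefore does not show how well the steps work on the deposited values. Intervals are exact Clopper-Pearson at 95%. Python 3.11.15, pandas 2.3.3, SciPy 1.17.1, networkx 3.6.1 and Biopython 1.88 were used. Some genes of the pathway lists are not reported here. Alternatives were other thresholds, pseudocounts, summaries and sets of cells.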

Additional observations from a re-analysis of the deposited data

How the results depend on the processing

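No paired analysis was possible because all cells belong to 1 group. The number of genes present in at least 22 cells depends on the threshold. At a log2 value of 1 it was 14 of 14 core, 16 of 17 19S and 3 of 5 immune or PA28 genes, where 25.4% of all symbols pass, against 6, 2 and 1 at 5. The core count was 8 at a log2 value of 4 and 4 at 6. The 19S count was 4 at a log2 value of 4 and 0 at 6, and the immune count was 1 and 0. The share of all symbols was not counted at 4 and 6. A rule chosen after seeing the data, a log2 value of at least 1 that also exceeds the linked-cell signal 5-fold, gave 10 core and 7 19S genes, where 10.8% of all symbols pass. At a log2 value of 1, Psmb8 was present in 59.1% of cells, Psmb9 in 22.7% and Psmb10 in 36.4%. Over the linked signal Psmb8 was present in 40.9% and Psmb9 in 22.7%. Low values shared between linked cells enter the first of these rules by construction. Leaving out each block in turn kept the core minus 19S difference between 1.05 and 1.23 and the immune minus constitutive difference between -3.03 and -2.45. With values under 5 set to 5 these were 0.44 ± 0.48 and -0.78 ± 0.97, with 36 cells above 0 and 6 above 0. Without block 1, Psmb9 was present in 2.70% of cells.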

Other observations

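Among 658 other genes present in at least 22 cells, those most like the core mean over the 42 cells in blocks, with block means subtracted, were the glycolytic enzyme gene Aldoa (Spearman's rho 0.54), the nucleotide kinase gene Nme2 (0.48) and the ferritin light chain gene Ftl1 (0.45). Over all 44 cells with no subtraction the same 3 gave 0.38, 0.43 and 0.46. Most like Psmb8 were the annexin partner S100a10 (0.45), the actin-binding Pfn1 (0.42) and the collagen crosslinking enzyme gene Loxl2 (0.41). These are the extremes of 658 values whose median was 0.0043 for the core mean and 0.0092 for Psmb8, picked for their size, and no relation is drawn from them.

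The class means were also set against 10 gene lists, in 40 relations over the 44 cells, whose libraries are linked. Those named before the dissociation response genes had the largest rho in either direction with no subtraction, and were picked for that. The PA28 mean had rho = 0.49 with the mean of 7 genes of proteasome transcription, and 0.39 with block means subtracted. Its rho with 7 tenocyte genes was -0.42, and -0.21 with block means subtracted. The immune catalytic mean had rho = 0.35 with 22 interferon genes, and 0.019 with block means subtracted. The core mean had rho = 0.31 with 6 Nrf2 target genes, and 0.28 with block means subtracted. For the immune catalytic mean and 6 ubiquitin and E1 genes rho was -0.30, and -0.32 with block means subtracted. Against 14 dissociation response genes, of which Fos and Hspa8 had the highest medians, 10.66 and 10.02, and Fosb and Dnajb1 the lowest, 1.02 and 1.13, the core and 19S means had rho = -0.030 and 0.066.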
